A study of Mus musculus with 312 samples.

Results

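The 71 cells described here were mammary cells from pregnant FVB/NJ mice whose labels call them basal. They were taken from 75 such cells, and from 312 cells in the whole series, by requiring at least 50000 read pairs and 1000 detected genes per cell after mitochondrial and ribosomal protein genes had been left out (71 of 75, 94.7%, exact Clopper-Pearson 95% interval 86.9 to 98.5%). Cells were captured in chambers of the Fluidigm C1, an instrument that turns the polyadenylated RNA of each cell into cDNA separately, and the libraries were sequenced as read pairs. The other cells of the series, from adult glands, were not compared. No allele, transgene or treatment is named in the labels, and neither are the day of pregnancy or the animal that each cell came from. The study describes total epithelium from mid-pregnancy on this instrument, with more retained cells than the 75 here. Whether the present cells are among them is not known, so the word basal rests on the labels and on the marker genes below. All 71 cells share 1 stage, 1 form of title and possibly 1 capture, and they were treated as 1 sample. Cells are therefore not replicates of a condition, and no test or p-value was computed over them. Cell numbers only name cells.

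Basal cells of the mammary gland lie on the basement membrane around the luminal cells. Most of them are myoepithelial: they hold keratins 5 and 14 like other basal epithelia, and also the actin, myosin and calponin genes of smooth muscle, with which they squeeze milk along the ducts when oxytocin arrives. The transcription factor p63, the product of Trp63, maintains this layer. Contractile genes of this kind are commonly switched on by serum response factor, which binds a short element called the CArG box. Genes of the late cell cycle commonly carry CCAAT boxes in their promoters.

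Promoter windows of contractile and proliferation genes are shown because pairs of both kinds were among those with the highest correlations over the cells, as described below. They were taken from RefSeq for the build GRCm38.p6 and run from 250 bases before to 50 bases after the annotated start. The CArG box was searched on both strands as CCWWWWWWGG, where W is A or T. It lay in this window in 3 of the 17 contractile genes that matched the table (Cnn2, Myl6 and Myl9). Of all 27025 genes, 1.81% held it. Among immediate early genes, whose pairs are also described below, it lay in 1 of 13 matched genes (Zfp36, 7.69%), and Egr1, Ier2 and Myc were not matched. Actg2, Tagln and Myh11 were not matched. Capitals mark the CArG box in the windows of Myl9, a regulatory myosin light chain (chr2:156775214-156775513, plus strand, 161 bases before the start), Myl6, an essential myosin light chain (chr10:128492960-128493259, minus strand, 50 bases before the start), and Cnn2, a calponin (chr10:79988350-79988649, plus strand, 56 bases before the start). The window of Acta2, smooth muscle actin (chr19:34255324-34255623, minus strand), held no exact match to that pattern. It held ccctatatgg and ccttgtttgg, which each differ from the pattern in a single letter and were not counted.
Myl9: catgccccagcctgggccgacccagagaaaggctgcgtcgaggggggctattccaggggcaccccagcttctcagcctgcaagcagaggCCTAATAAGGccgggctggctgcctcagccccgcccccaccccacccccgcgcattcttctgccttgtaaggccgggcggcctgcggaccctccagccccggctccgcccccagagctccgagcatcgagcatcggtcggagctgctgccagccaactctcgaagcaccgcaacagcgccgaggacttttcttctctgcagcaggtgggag
Myl6: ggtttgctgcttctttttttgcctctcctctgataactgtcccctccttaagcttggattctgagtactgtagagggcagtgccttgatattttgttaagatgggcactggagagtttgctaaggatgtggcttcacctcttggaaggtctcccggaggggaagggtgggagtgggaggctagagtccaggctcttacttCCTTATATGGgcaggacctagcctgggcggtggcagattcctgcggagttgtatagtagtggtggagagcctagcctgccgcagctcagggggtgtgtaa
Cnn2: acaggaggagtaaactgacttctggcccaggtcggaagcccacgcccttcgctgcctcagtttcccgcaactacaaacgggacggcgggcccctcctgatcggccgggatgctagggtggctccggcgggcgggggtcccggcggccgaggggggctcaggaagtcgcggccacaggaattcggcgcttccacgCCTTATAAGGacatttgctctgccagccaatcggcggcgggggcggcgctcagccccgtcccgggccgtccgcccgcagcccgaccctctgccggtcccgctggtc
Acta2: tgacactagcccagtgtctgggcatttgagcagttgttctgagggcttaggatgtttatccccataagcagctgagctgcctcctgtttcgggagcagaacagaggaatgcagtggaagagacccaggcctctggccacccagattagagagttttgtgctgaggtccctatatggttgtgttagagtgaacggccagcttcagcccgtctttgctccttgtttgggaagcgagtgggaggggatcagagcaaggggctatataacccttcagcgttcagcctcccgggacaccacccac

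Among proliferation genes, 14 of 16 matched genes (87.5%) held CCAAT on either strand in the window, beside 41.1% of all genes. The letters TTTGAA or TTCGAA, on either strand, lay in 8 of the same 16 genes and in 21.7% of all genes. Ccna2, Foxm1, Aurkb and Tpx2 were not matched. Capitals mark CCAAT, or ATTGG where it lies on the other strand, in the windows of 4 genes of chromosome segregation whose levels are described below. These were Cenpf, a kinetochore protein (chr1:189688037-189688336, 2 matches), Top2a, DNA topoisomerase II alpha (chr11:99024140-99024439, 6 matches), Bub1, a spindle checkpoint kinase (chr2:127831810-127832109, 2 matches), and Mki67, the gene of the Ki-67 antigen (chr7:135716330-135716629, 3 matches), all on the minus strand. These matches describe letters and were not tested for binding.
Cenpf: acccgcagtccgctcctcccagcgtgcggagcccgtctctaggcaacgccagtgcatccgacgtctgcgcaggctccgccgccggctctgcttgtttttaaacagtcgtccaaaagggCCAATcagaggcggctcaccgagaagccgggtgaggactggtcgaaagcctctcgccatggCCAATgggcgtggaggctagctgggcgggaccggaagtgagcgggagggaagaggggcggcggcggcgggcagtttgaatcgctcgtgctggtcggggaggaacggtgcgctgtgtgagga
Top2a: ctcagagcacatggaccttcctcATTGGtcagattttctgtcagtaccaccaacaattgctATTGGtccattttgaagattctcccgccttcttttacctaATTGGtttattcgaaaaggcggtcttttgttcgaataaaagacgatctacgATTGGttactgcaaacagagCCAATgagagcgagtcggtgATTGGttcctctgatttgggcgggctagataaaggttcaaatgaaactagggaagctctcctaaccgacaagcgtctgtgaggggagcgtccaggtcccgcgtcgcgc
Bub1: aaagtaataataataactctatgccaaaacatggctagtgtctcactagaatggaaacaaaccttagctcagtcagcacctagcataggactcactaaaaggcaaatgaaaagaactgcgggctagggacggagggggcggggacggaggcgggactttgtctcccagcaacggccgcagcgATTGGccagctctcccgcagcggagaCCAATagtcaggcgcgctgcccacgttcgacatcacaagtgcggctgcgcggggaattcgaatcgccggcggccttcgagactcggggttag
Mki67: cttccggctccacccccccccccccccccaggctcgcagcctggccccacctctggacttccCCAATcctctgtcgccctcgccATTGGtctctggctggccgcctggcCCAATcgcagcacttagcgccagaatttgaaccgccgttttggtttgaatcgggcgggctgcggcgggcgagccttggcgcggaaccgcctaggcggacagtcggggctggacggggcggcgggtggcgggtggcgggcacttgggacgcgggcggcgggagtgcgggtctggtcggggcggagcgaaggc

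Assigned read pairs, those in the 25136 genes used, ranged from 83688 to 405910 per cell with a median of 230645. Levels are given as CPM, the read pairs of a gene per 1000000 assigned read pairs of its cell. Detected genes per cell ranged from 3135 to 9378 with a median of 4459, and cell 45 had the most. Mitochondrial genes took a median of 18.4% of all read pairs (4.43 to 56.5%), with the highest share in cell 71. Of 16397 genes with a read in at least 1 cell, 339 had a read in all 71 cells and 6725 in fewer than 10% of cells.

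The label basal was checked against 11 core basal genes (Krt5, Krt14, Krt17, Acta2, Mylk, Myh11, Myl9, Cnn1, Tagln, Trp63 and Cxcl14), where a gene counted as present in a cell at 100 CPM or more. At least 6 of them were present in 70 of 71 cells (98.6%, exact interval 92.4 to 99.96%), with a median of 9. The exception was cell 71, which had 5. At least 3 genes of the immune, endothelial, pericyte, Schwann or mature luminal lists were present in 0 of 71 cells, and the limit that a count of 0 allows, taken as 3 counts of 71, was 4.23% of cells for each list. Of the 8 immune genes, Cd52, Cd3e and Cd79a had no read in any cell, Cd74 had reads in 21 cells (up to 289 CPM), and Ptprc, Tyrobp, Fcer1g and Lyz2 had reads in 1 to 7 cells and at most 12.3 CPM. At least 3 pan-luminal genes were present in cells 18, 28 and 71, and at least 3 fibroblast genes in cells 38, 44 and 62. At least 3 luminal progenitor genes were present in cells 57 and 71, and at least 3 milk protein genes in cells 2, 22, 57 and 71. Cell 57 also held 10 of the 11 core basal genes. Fluidigm cells were checked by eye under the microscope in the study, and no doublet caller was run here.

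Cell 71 stood apart from the others in more than its mitochondrial share. It had the lowest summed level of all 71 cells for contractile genes (2139 CPM, beside 14666 to 194324 CPM in the other cells), hemidesmosome and basement membrane genes (671 CPM, beside 3948 to 23723 CPM) and matricellular genes (2543 CPM, beside 4197 to 41538 CPM). It was the highest for milk protein genes (223037 CPM, beside at most 6761 CPM) and for pan-luminal genes (4530 CPM, beside at most 2034 CPM). Krt14 did not separate it: its 1768 CPM ranked 52nd of 71. Results are therefore given with and without cell 71.

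Acta2, Tagln, Myl9 and Tpm2 were the contractile genes among the 25 leading transcripts. Compared per kilobase of exon, which puts genes of different length on 1 scale, the 25 genes with the highest median took a median of 13.3% of assigned read pairs per cell (5.75 to 26.3%). Metallothionein 1 (Mt1), a metal-binding protein, was the highest with a median of 13233 CPM per kb (lowest cell 768, highest 48888). Acta2 followed with 9226 CPM per kb (506 to 62214) and cytoplasmic beta-actin (Actb) with 8093 CPM per kb (2923 to 19635). The ranges of these leading genes overlapped widely among cells. The other contractile genes were Tagln, which codes for transgelin, at a median of 3740 CPM per kb, Myl9 at 2429 and the tropomyosin gene Tpm2 at 1440. Krt14 stood at 1842 CPM per kb (53.8 to 5546).

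The remaining leading genes were of mixed function. Ifitm3, an interferon-inducible membrane protein, had a median of 4720 CPM per kb, and the nuclear noncoding RNA Malat1 had 4165. Ecrg4, which codes for a secreted peptide precursor, had 2792 CPM per kb (43.0 to 8852), Apoe, apolipoprotein E, 2380 (8.73 to 7974) and Lcn2, the iron-siderophore binder lipocalin 2, 2228 (0 to 15413). The lowest cell was cell 71 for Ecrg4 and Apoe, but not for Lcn2. Without it, Ecrg4 did not fall below 288 CPM and Apoe not below 92.3 CPM. Secreted Sparc (1269), the cytochrome oxidase subunits Cox6a1 (2388) and Cox4i1 (1388), the heparan sulfate proteoglycan Sdc4 (1703) and the early response gene Fos (1375) were also among the 25, each given as the median CPM per kb. Mir682 and Snora81 also fell among the 25, but their annotated lengths of 96 and 164 bases make a value per kilobase uncertain. Without cell 71, the medians changed little: Mt1 had 13745.5, Acta2 9325 and Actb 8106 CPM per kb.

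In every one of the 71 cells, 37 genes reached 100 CPM, and 52 did so in every cell but 71. They included Acta2 (901 to 110742 CPM, median 16422), Mylk, the kinase that starts smooth muscle contraction (344 to 19943 CPM, median 6689), Myh11, smooth muscle myosin heavy chain (109 to 13886 CPM, median 4160), and Tagln (147 to 41093 CPM, median 5932). The lowest value of each of these 4 genes belonged to cell 71. Without it, Acta2 did not fall below 4024 CPM and Tagln not below 509 CPM. The actin-binding genes Cald1 and Flna, the transcription factor gene Nfib (295 to 7209 CPM, median 2453), the insulin-like growth factor binding protein gene Igfbp5 (282 to 18827 CPM, median 4780) and Kitl, the ligand of the Kit receptor (165 to 10956 CPM, median 1002), were also among the 37. Other basal markers were not met in every cell: Krt5 reached 100 CPM in 46 of 71 cells, Krt17 in 38, Trp63 in 36 and Cxcl14 in 32. Des, desmin of muscle, had reads in 1 cell only (5.42 CPM).

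**Figure D1:**
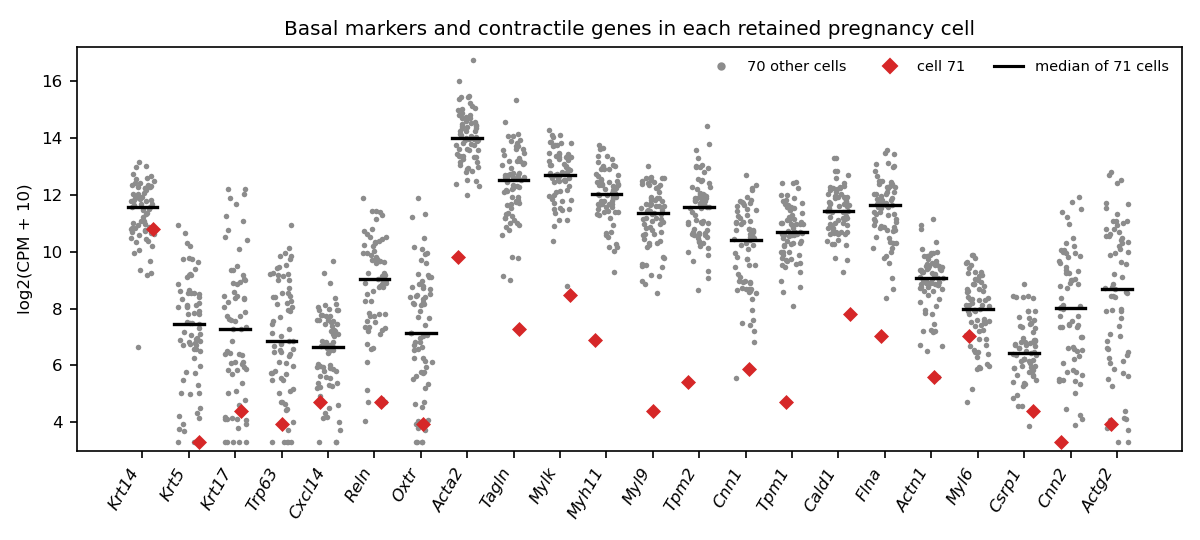
Level of each gene in each of the 71 cells, on the y axis as log2(CPM + 10), with basal markers at the left and contractile genes from Acta2 to the right. Grey points are 70 cells, the red diamond is cell 71 and the bar is the median of all 71; Acta2, Tagln, Mylk and Myh11 sit high in every grey cell, Actg2, Cnn2 and Krt17 run from absent to high, and cell 71 lies at the bottom of Acta2, Tagln, Mylk and Myh11.

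How far a gene varied among cells was measured as the standard deviation (SD) over the 71 cells of log2(CPM + 10), a scale that shrinks differences of low genes. This SD depended on the level: around a mean of 200 CPM its median was 2.03, and around 5000 CPM it was 1.32. Each of the 3751 genes whose mean was 50 CPM or more was therefore compared with the running median SD of the 101 genes nearest in mean level, and the difference is called the residual SD. The 375 genes with the highest residuals (10% of those tested) are called variable and the 375 with the lowest (10%) uniform. These classes are cuts in a continuous range: C1qtnf4, the last variable gene, had a residual of 0.2845 and Mef2c, just outside, 0.2843, while Tpm3, the last uniform gene, had -0.2646 and Marchf5, just outside, -0.2644. Genes of the highest means were all compared with the same 101 genes, so their residuals are the least certain.

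**Figure D2:**
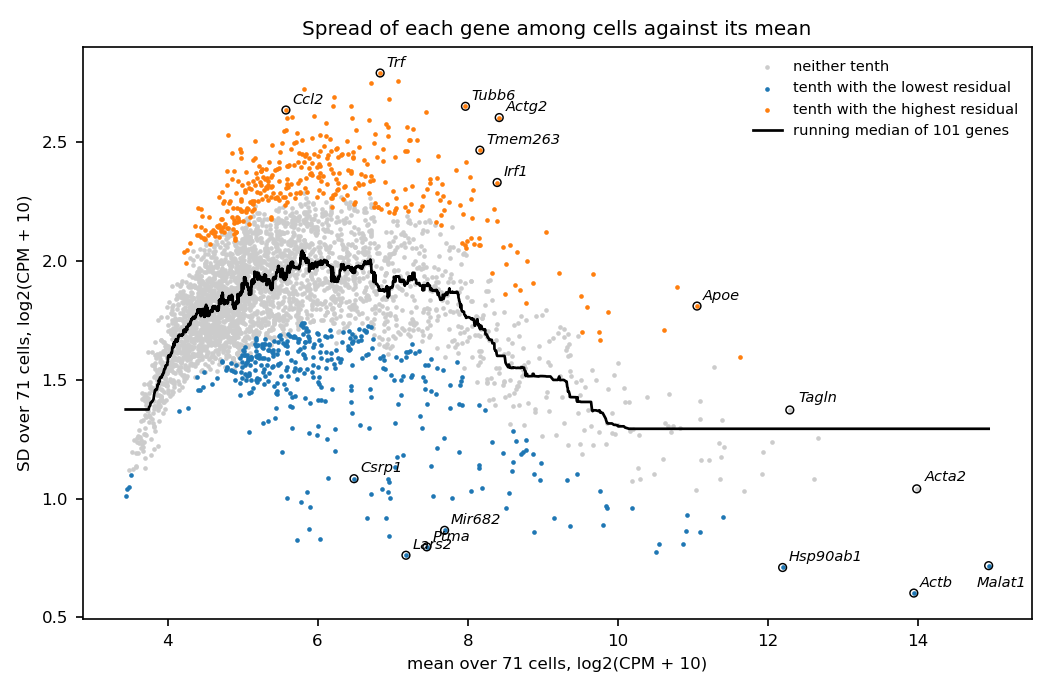
Each point is 1 of 3751 genes, with the mean over 71 cells on the x axis and the SD over the same cells on the y axis, both as log2(CPM + 10). The black line is the running median of 101 genes, orange points are the variable and blue points the uniform genes; Actg2, Tubb6 and Trf lie far above the line, and Actb, Malat1, Hsp90ab1, Ptma and Lars2 far below it.

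Among 20 contractile genes, 19 were tested, of which 2 were variable and 4 uniform, beside 10% of all tested genes in each class. Actg2, the enteric smooth muscle actin, had the highest residual of all 3751 genes (1.00, SD 2.60). Its level was 0 in the lowest cell, 400 CPM in the median cell and 7161 CPM in the highest, with 100 CPM reached in 50 of 71 cells. Acta2, its close relative, stood at 901 CPM or more in every cell and had a residual of -0.25 (SD 1.04). The sequences of the actin genes are alike, so the division of some reads among them is uncertain. Cnn2, a calponin of both muscle and non-muscle cells, was the other variable gene (0 to 3894 CPM, median 247, residual 0.29). It was no longer among the variable genes without cell 71, while Actg2 was (residual 0.98). The uniform contractile genes were Csrp1, a LIM domain protein (4.49 to 459 CPM, residual -0.87), Myl6 (-0.64), Actn1, which codes for an alpha-actinin (-0.41), and Cald1 (-0.37). Myl6 had a rho of 0.83 with the pseudogene Gm10080 and may share reads with it, so its value is uncertain. The median residual of the 19 genes was 0.00 with cell 71 and -0.14 without it, beside 0 for all genes tested.

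The 20 most variable genes at a mean of 100 CPM or more are described in groups made after their values were seen, with no test of any group. Sec61a1, the channel through which new proteins enter the endoplasmic reticulum, ranged from 0 to 4411 CPM (median 169, residual 0.82). Ssr2, a subunit of the complex beside that channel, ranged from 0 to 3046 CPM (median 28.7, residual 0.69), and Sec11a, a subunit of signal peptidase, from 0 to 2810 CPM (median 103, residual 0.67). At least 100 CPM of these 3 genes was found in 39, 25 and 36 of the 71 cells, so that cells with high and with no detectable level stood side by side. Idh3g, a subunit of mitochondrial isocitrate dehydrogenase, ran from 0 to 8710 CPM (median 110, residual 0.83), and Uqcrc1, a core subunit of respiratory complex III, from 0 to 6242 CPM (median 66.1, residual 0.79). Park7, a protein of the oxidative stress response, ran from 0 to 3554 CPM (residual 0.65) and the reductase Cyb5r3 from 0 to 3467 CPM (residual 0.63).

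Tubb6, a beta-tubulin, ranged from 0 to 8498 CPM (median 234, residual 0.88). Tgfb1i1, a focal adhesion adaptor also known as Hic-5, ranged from 0 to 4162 CPM (median 42.3, residual 0.76), and Ctnnd2, a catenin of cell junctions, from 0 to 3706 CPM (median 330, residual 0.65). Tgfb1i1 was undetected in 18 of 71 cells, Ctnnd2 in 1. Irf1, a transcription factor of the interferon response, reached 100 CPM in 53 cells and ranged from 0 to 5506 CPM (median 478, residual 0.73). Tnfrsf12a, the receptor of the cytokine TWEAK, ranged from 0 to 5899 CPM (median 94.5, residual 0.69). Enc1, Zfp655, Taf4b, Usp22 and Tmem263 had residuals between 0.68 and 0.74. All 20 genes stayed in the variable class when cell 71 was left out.

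Trf, transferrin, was second in rank (residual 0.91) and depended most on cell 71. That cell had 16832 CPM, beside a median of 74.5 CPM and a highest value of 7846 CPM in the other 70. Its residual without cell 71 was 0.72, and it remained in the class. Apoe (residual 0.52), Lcn2 (0.42) and Sdc4 (0.30) were the variable genes among the 25 leading ones.

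**Figure D3:**
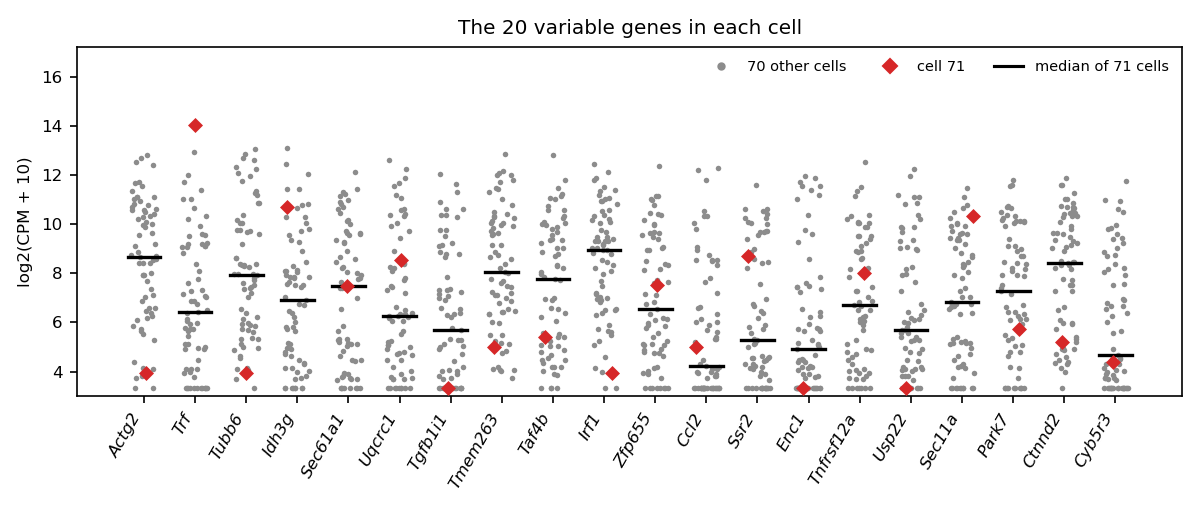
Level of the 20 most variable genes in each of the 71 cells, on the y axis as log2(CPM + 10), ordered on the x axis by falling residual SD. Points at the lower edge are cells without a read, grey points are 70 cells, the red diamond is cell 71 and the bar is the median; most genes run from no read to levels far above the median, and cell 71 is the highest cell for Trf alone.

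This choice of genes depended on how spread was measured. With the squared coefficient of variation, which weighs the highest cells most, 52 of the 375 variable genes were shared, and 14 of the 20 named ones, Actg2 among them, left the class. Trf, Tubb6, Idh3g, Uqcrc1, Ccl2 and Enc1 stayed in it under both measures.

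Of the 20 genes with the smallest residuals at a mean of 100 CPM or more, 9 were annotated as protein-coding. The others were pseudogenes such as Gm5526 (-1.07) and Gm8680 (-1.01), the miRNA gene Mir682 (-0.99) and the noncoding RNA 2900060B14Rik (-0.77). Of 16 housekeeping and translation genes, 11 were tested: 8 were uniform and 0 variable. Actb ranged only from 5521 to 37090 CPM (median 15288, residual -0.69). Eef1a1, the elongation factor that brings tRNAs to the ribosome, ranged from 351 to 5875 CPM (residual -0.49), and Pabpc1, the poly(A) binding protein, from 99.2 to 1739 CPM (residual -0.67). Of 10 chaperone genes tested, 5 were uniform. Hsp90ab1, the constitutive HSP90, ranged from 1507 to 13581 CPM (median 4934, residual -0.58) and Hspa8, the constitutive HSC70, from 47.8 to 1228 CPM (residual -0.61), whereas Dnajb1, a stress-inducible cochaperone, was variable (0 to 1280 CPM, residual 0.40). Malat1 ranged from 12000 to 103790 CPM (median 29078) and had a residual of -0.58.

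At lower levels, Lars2 and Ptma had the smallest residuals among protein-coding genes with a mean of 100 CPM or more. Lars2, mitochondrial leucyl-tRNA synthetase, ranged from 30.8 to 541 CPM (median 127, residual -1.14). Ptma, prothymosin alpha, ranged from 26.8 to 513 CPM (median 183, residual -1.10). The RNA-binding genes Hnrnpl (-0.87) and Khsrp (-0.82), the nascent chain factor Naca (-0.81), the translation initiation factor Eif2s2 (-0.76) and the transcription factor Cebpb (0 to 410 CPM, median 148, residual -0.78) were also among the lowest. Cebpb had a read in 70 of 71 cells, and none of these 7 genes exceeded 1163 CPM in any cell. Pseudogenes made up 7.73% of the uniform class and 1.23% of all genes tested. Many genes of this class, Ptma, Naca and Actb included, have near-identical copies elsewhere in the genome, and how read pairs were divided among copies is uncertain. Lars2 had a rho of 0.27 with the mitochondrial ribosomal RNA mt-Rnr2 and 0.20 with the mitochondrial gene COX1. Whether mitochondrial reads entered the count of Lars2 was not tested. Gapdh, which most cells use, had a median of 0 CPM, and Tmsb4x had no read in any cell.

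Gene lists of other functions are given beside the 10% of all tested genes in each class. Of 7 milk protein genes, 4 were tested and 3 were variable (Csn1s2a, Csn2 and Csn3). Their median residual was 0.40 with cell 71 and 0.03 without it. Of 8 luminal progenitor genes, 2 were tested, and both (Lcn2 and Wfdc18) were variable with cell 71 included. The median residual of these 2 genes was 0.38 with cell 71 and 0.21 without it. Wfdc18 had 30258 CPM in cell 71, beside at most 1488 CPM in the other cells. Chemokines and cytokines had the highest median residual of all lists with tested genes (0.43). Of 12 chemokines and cytokines, 5 were tested, and Ccl2 (0 to 4914 CPM, residual 0.70), Ccl7 (0.43) and Cxcl1 (0 to 7922 CPM, residual 0.53) were variable. Ccl2, which attracts monocytes, had no read in 25 of 71 cells, and Cxcl1, which attracts neutrophils, reached 100 CPM in 25. Cxcl14, the chemokine of the basal list, was uniform (0 to 804 CPM, residual -0.51). Krt17 was the variable keratin among 4 tested (0 to 4721 CPM, residual 0.57), while Krt14 had a residual of -0.21. Of 16 tested hemidesmosome and basement membrane genes, 15 were in neither class, and Plec, the linker plectin, was variable (0.32). Ccn1 (0.54) and Ccn2 (0.44), secreted matricellular proteins, were variable among 5 tested genes of their kind. Of 16 immediate early genes, Atf3 was variable (0 to 5722 CPM, residual 0.59), and Jund, Ier3, Zfp36 and Nr4a1 were uniform. Of 15 respiratory chain genes tested, 3 were variable (Uqcrc1, Sdhb and Ndufb9) and 4 uniform (Uqcrh, Cox6c, Cox7a2 and Ndufa4). Of 8 basal transcription factors tested, Nfib was uniform (-0.43) and none was variable. Reln, which codes for the secreted protein reelin, ranged from 6.39 to 3763 CPM (median 512) and was variable (0.33).

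Relations between genes were described by Spearman's rho over the 71 cells, for the 1970 genes that averaged 100 CPM or more and had a read in at least 50% of cells. The points of each rho share a stage and possibly a capture, and they differ in depth and in RNA content. Most pairs were close to unrelated: of 1939465 pairs, the median rho was 0.03, with a 5th percentile of -0.20 and a 95th percentile of 0.25. A rho of at least 0.5 was reached by 483 pairs (0.0249%) and of at least 0.3 by 44632 pairs (2.3%). A rho of at most -0.5 was reached by 50 pairs. Without cell 71, 514 pairs reached 0.5, of which 418 also did with it. After the number of genes detected at equal depth and the mitochondrial share were regressed out, 380 pairs reached 0.5, of which 309 also did before. With every cell thinned to 50000 read pairs, 290 pairs did.

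The closest pairs joined a protein-coding gene with a gene annotated as a pseudogene. Ubb, a ubiquitin gene, and Ubb-ps had a rho of 0.97, Ifitm2 and Gm5331 0.96, Prdx1 and Gm21399 0.88, Myl12a and Gm6517 0.87, and Myl6 and Gm10080 0.83. The sequences of these pairs were not compared. How reads that match more than 1 gene were divided is not given in the sources used here. Apart from Myl6 with Gm10080 and Gm5526, no gene was linked to more than 1 other, and there was no group of 4 or more genes linked at a rho of at least 0.7.

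Among pairs of different protein-coding genes, the highest rho was 0.75, between Washc4, a subunit of the endosomal WASH complex, and Dicer1, the nuclease that makes microRNAs. Sec24a, a coat protein of transport vesicles, and Gli3, a transcription factor of Hedgehog signalling, followed at 0.72, and Lrrc58 and Actb at 0.71. Without cell 71 these were 0.75, 0.72 and 0.70. Actb and Lrrc58 were both uniform in level. The division of reads among copies of Actb is uncertain, and its part in this rho was not tested.

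Several of the highest pairs joined genes of chromosome segregation. Cenpf and Cenpe, which codes for a kinetochore motor, had a rho of 0.69, and Smc4, a condensin subunit, had 0.64 both with Cenpe and with Cenpf. Top2a had 0.64 with Smc2, the other condensin core subunit, and 0.63 with Smc4. Smc2 and Smc4 had 0.66 with each other. Without cell 71 these 6 values lay between 0.62 and 0.71. Levels were low in the median cell (Top2a 8.84 CPM, Cenpe 24.5 CPM, Cenpf 46.3 CPM) and far higher in some cells (Top2a up to 2556 CPM, with 12 cells at 100 CPM or more, and Cenpe up to 1794 CPM, with 25). At a lower limit of 50 CPM in the mean and a read in 20% of cells, Foxm1, a transcription factor of mitosis, and Bub1 had a rho of 0.75, and both reached 100 CPM in 8 cells. Mki67 and the spindle factor Tpx2 had 0.61. Of 28 pairs among 8 proliferation genes at that limit, 23 were above 0, with a median of 0.18. At the main limit, 1114049 of all 1939465 pairs were above 0, with a median of 0.03. The values for all pairs at the lower limit are not given, so the 23 pairs have no background of their own. Cenpe, Smc2 and Smc4 are not on the proliferation list and were put beside it after their values had been seen.

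Levels of contractile genes were related weakly over the list and more closely in part of it. Of 153 pairs among 18 genes, 136 were above 0 (1114049 of all 1939465 pairs were), 31 reached 0.3 and 5 reached 0.5. The median rho was 0.15 with cell 71 and 0.12 without it, beside 0.03 for all pairs. It was 0.23 with Pearson's r and 0.23 with TMMwsp scaling of the libraries. Acta2 and Tagln had the highest rho, 0.61 (0.59 without cell 71). Tagln was also related to Myl6 (0.58) and to Cnn1, smooth muscle calponin (0.55), and Acta2 to Myl6 (0.51) and Myl9 (0.47). Mylk was closest to other members: its rho was 0.51 with Cald1 and 0.47 with Csrp1, and only 0.12 with Acta2. Acta2 with Cald1 had -0.17. After the regression on genes detected and mitochondrial share, Acta2 with Tagln had 0.54 and Acta2 with Myl9 0.35, while Mylk with Cald1 remained at 0.52. Acta2 was also related to assigned read pairs (rho 0.47), as was Sparc (0.48), and the part of depth in these relations was not tested. Pericyte genes, which mark the contractile cells of small vessels, summed to between 0 and 1367 CPM, and at least 3 of the 8 were present in 0 of 71 cells.

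Immediate early genes had the highest median rho of the lists with more than 10 genes measured (0.19 over 91 pairs of 14 genes, 79 of them above 0, 26 at 0.3 or more). This rank depended on the measure. Contractile pairs had the higher median with Pearson's r (0.234, beside 0.206) and with TMMwsp scaling (0.231, beside 0.181). Fos and Egr1, both induced within minutes by growth factor signals, had a rho of 0.61. Fos had 0.51 with Nr4a1 and 0.50 with Junb, Junb had 0.51 with Ier2, and Jun had 0.50 with Egr1. Without cell 71 the same 5 pairs had values from 0.48 to 0.63. Fos ranged from 87.3 to 15859 CPM (median 2877) and Egr1 from 122 to 8840 CPM (median 1949), so both had reads in all cells and differed in degree. The lowest pair was Fosb with Myc (-0.21), and Myc had 0.20 with both Klf4 and Junb.

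Respiratory chain genes had a median rho of 0.13 over 91 pairs (Cox4i1 with Ndufb9 0.47), MHC class I and interferon genes 0.23 over 6 pairs (H2-K1 with H2-D1, which are alike in sequence, 0.28), and hemidesmosome and basement membrane genes 0.08 over 105 pairs (Col4a1 with Dag1, dystroglycan, 0.34, and with Col4a2 0.32). Basal transcription factors had 0.03 over 15 pairs, the highest being Trp63 with Snai2, the EMT factor Slug, at 0.25. The 3 casein pairs among Csn1s1, Csn1s2a and Csn3 had a median of 0.53, 0.51 without cell 71 and 0.37 after the regression. Levels of these caseins were low in the median cell (Csn1s1 20.5 CPM, Csn3 15.4 CPM and Csn1s2a 12.3 CPM). Mt1 and Mt2 had a rho of 0.57.

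**Figure D4:**
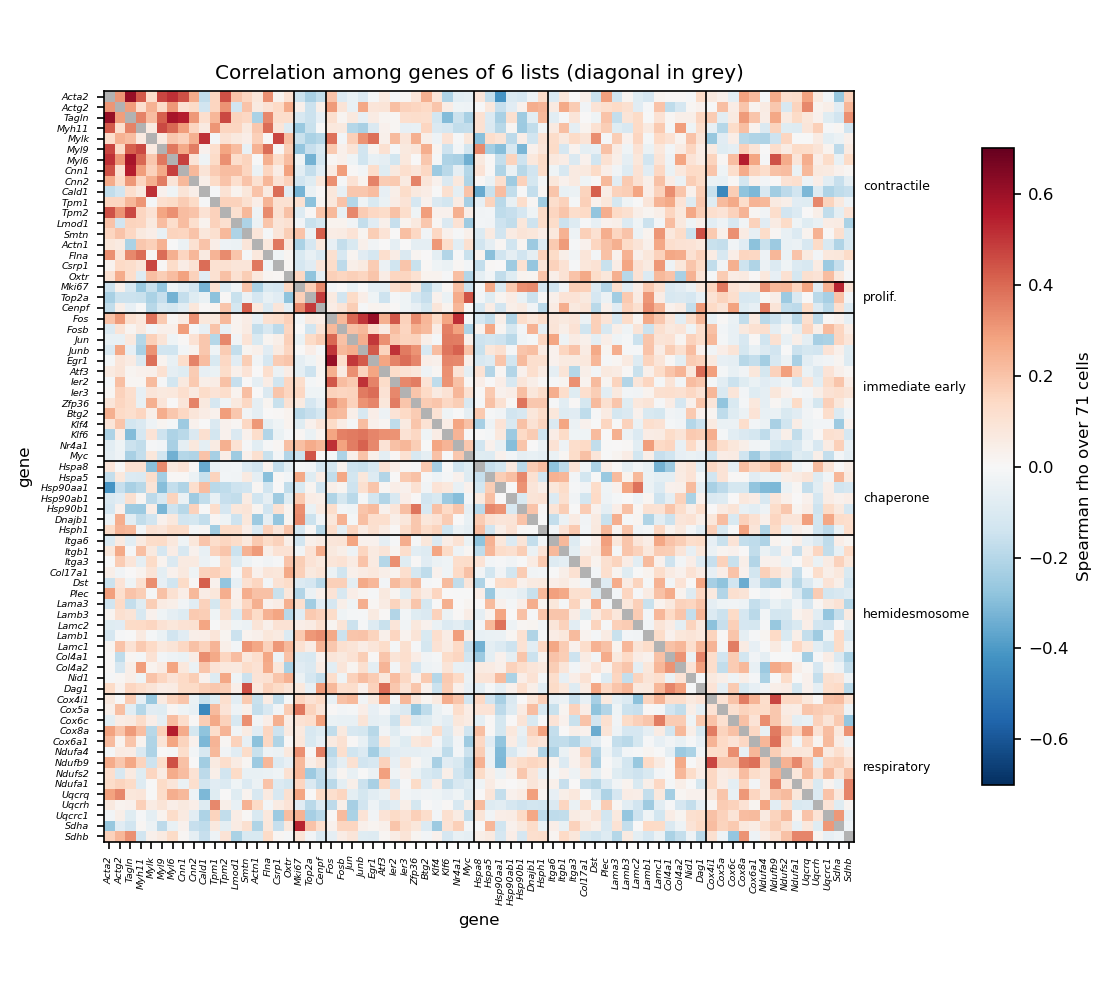
Spearman's rho over 71 cells between genes of 6 lists, in the same order on both axes, with red for positive and blue for negative values and black lines between lists. The contractile block is reddest around Acta2, Tagln, Myl9, Myl6 and Cnn1, the immediate early block around Fos, Egr1 and Junb, and the chaperone and hemidesmosome blocks are pale.

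The 6 genes that mark these cells were mostly unrelated in level. Of the 15 pairs among Krt14, Acta2, Mylk, Myh11, Trp63 and Reln, 14 had a rho between -0.09 and 0.18, and Acta2 with Myh11 had 0.43 (0.41 without cell 71). Krt14 was closest to Pmepa1 (0.40), Cep350 (0.36) and Krt5 (0.36), its partner in the keratin filament. The genes closest to Myh11 were Myl9 (0.46), Acta2 (0.43), Myl6 (0.40) and Flna (0.39). Trp63 had no contractile gene or keratin among its 10 closest, which were led by Twsg1, an extracellular BMP-binding protein (0.56), the splicing factor Sf3a3 (0.52) and Pdcl3 (0.50). Reln was closest to Utrn, which codes for utrophin (0.41), and Vdac1 (0.38). Without cell 71, each of the values just named moved by less than 0.05.

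The most negative pair joined Malat1 and Ubb (rho -0.60, and -0.62 without cell 71). Malat1 also had -0.54 with Actg1, cytoplasmic gamma-actin. Myh9, non-muscle myosin, had -0.48 with Acta2, and Ktn1, which codes for kinectin, had -0.48 as well.

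The largest common pattern among the 1970 genes ran from mostly short to mostly long transcripts. The first principal component of log2(CPM + 10), scaled per gene, held 5.51% of the variance. Birc2, an inhibitor of apoptosis, led its high end, followed by long transcripts such as Wapl, Zfhx4, Mycbp2, Dync2h1, Nsd2 and Malat1. At its low end were short ones such as Ifitm2, Atp5e, Uqcrb, Cox8a and Cox14, of which Uqcrb and Cox8a code for respiratory chain subunits and Atp5e for a subunit of ATP synthase. The 100 genes with the highest loadings had a median exon length of 6181 bases, the 100 with the lowest 1172 bases, and loading and length had a rho of 0.39 across genes, which are not independent. Cell 71 had the lowest score of all cells. The highest 5 scores belonged to cells 49, 51, 56, 60 and 61. In these, Malat1 lay between 57050 and 103790 CPM, beside a median of 28789 CPM and a highest value of 102605 CPM in the other 66. Malat1 is among the leading loadings, so this describes how the cells were picked and is no test. In the same 5 cells ribosomal protein genes took a median of 0.93% of read pairs, beside 1.35%. The 5 cells held 8 to 10 of the 11 core basal genes, and Acta2 in them ranged from 7166 to 32842 CPM. Over all cells the score had a rho of -0.43 with the ribosomal protein share, -0.29 with assigned read pairs and -0.005 with the mitochondrial share. The part of these shares and of depth in the pattern was not tested.

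**Figure D5:**
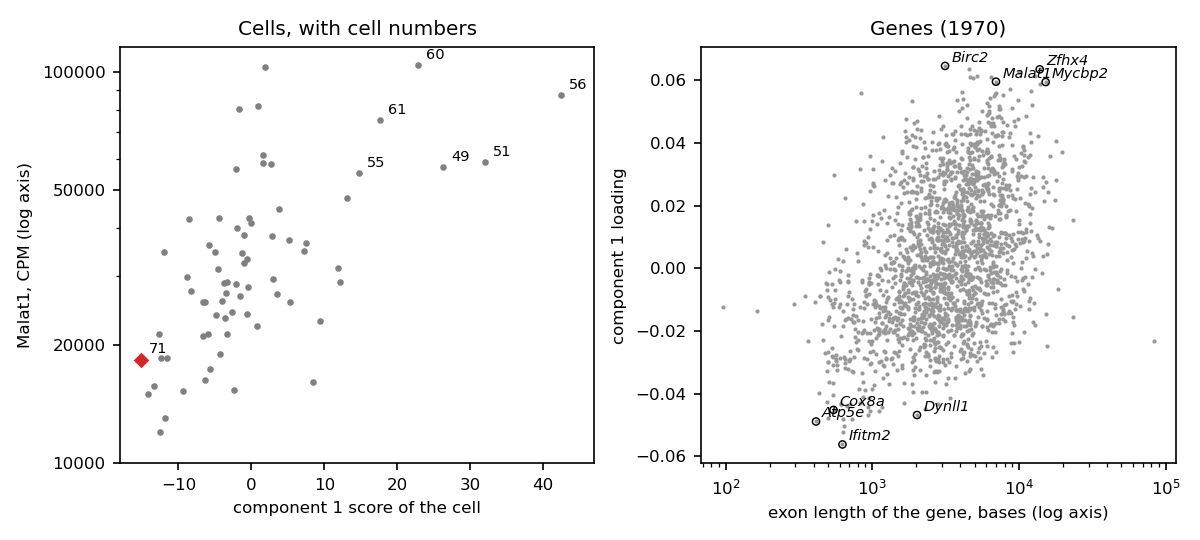
Left, each point is a cell, with its score on the first component on the x axis and Malat1 in CPM on a log y axis, and cell 71 is the red diamond; cells 49, 51, 56, 60 and 61 lie to the right with Malat1 at 57050 CPM or more. Right, each point is 1 of 1970 genes, with exon length on a log x axis and the loading on the y axis; long genes such as Zfhx4 and Mycbp2 lie at the top and short ones such as Atp5e and Ifitm2 at the bottom.

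Without these 5 cells and cell 71, the 20 most variable genes and the 20 most uniform genes all stayed in their classes, and 428 pairs reached a rho of 0.5. Acta2 with Tagln then had 0.60, Fos with Egr1 0.63, Washc4 with Dicer1 0.75 and Malat1 with Ubb -0.56. Pairs of chromosome segregation genes fell, some by more. Smc4 went from 0.64 to 0.57 with Cenpe, from 0.64 to 0.59 with Cenpf and from 0.63 to 0.58 with Top2a. Cenpf with Cenpe went from 0.69 to 0.67 and Top2a with Smc2 from 0.64 to 0.63. The second component held 4.06% of the variance. Dicer1, Amotl2 and Washc4 were at its high end and Txnl4a and Cyp1b1 at its low end, and its score had a rho of -0.45 with genes detected at equal depth and 0.37 with the mitochondrial share.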

How the data were processed

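Read pairs of each cell had been aligned by the authors to mm10 with Subread (1.5.0 per the submitters' processing notes) and counted per Entrez gene with featureCounts against the RefSeq annotation built into Rsubread. The deposited values are counts of read pairs, without molecular identifiers, 1 file per cell, and whether strand was used is not given in the sources used here. Of 27179 gene IDs, 25275 matched a symbol, and 1904 without a symbol, 15 mitochondrial and 124 ribosomal protein genes were left out, which left 25136. Cells were grouped by their titles. No 2 retained cells had identical counts. Intervals are exact Clopper-Pearson and cover counting error only, since amplified reads are not independent molecules.

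Counts were scaled to CPM of the genes used and taken as log2(CPM + 10). Levels between genes were compared per kb of exon. Spread, correlation and components were computed in Python 3.11.15 with numpy 2.4.6, scipy 1.17.1 and pandas 2.3.3, and the scripts were tested on simulated data. The genes named were the 25 of highest median CPM per kb, the 20 of highest and of lowest residual SD among genes whose mean was 100 CPM or more, the highest and lowest gene pairs, the 10 closest genes to each of 6 markers, the leading loadings and all members of 24 gene lists. A variable gene also needed 100 CPM in at least 7 cells and no cell with over 33.3% of its summed CPM. The members, lists and this rule were chosen with earlier results of these data known, and 1 list (Reln, Col9a1, Spock3 and Ncam1) came from those results. Igfbp5 and Kitl were named because they reached 100 CPM in all cells, after their values were seen. Alternatives were other read and gene minimums, pseudocounts, level limits, the squared coefficient of variation, Pearson's r, thinning to 50000 read pairs, TMMwsp scaling with edgeR 4.0.16 in R 4.3.3, matching per kb, and leaving out cells. No doublet caller was run. Leaving out cell 45 or cells 49, 51, 56, 60 and 61, protein-coding genes only, and the limit of a read in 20% of cells were chosen after seeing the data. Promoter windows came from the RefSeq table of GRCm38.p6, the build that mm10 names.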

Additional observations from a re-analysis of the deposited data

Results flagged for a closer look

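The 4 pregnancy cells below the read or gene minimum entered no result above, and all 4 held reads of the basal list. Reads were found for 10 of the 11 core basal genes in cell 3, for 10 in cell 12, for 11 in cell 68 and for 9 in cell 73, at 19416, 19892, 28885 and 25426 assigned read pairs. Genes left out of the levels also carried signal in the 71 cells: ribosomal protein genes took a median of 1.32% of all read pairs and mitochondrial genes a median of 18.4%.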

How the results depend on the processing

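Of the values recomputed under an alternative, 87 stayed within the tolerance (0.05 in rho, a factor of 1.5 in a count) and 22 did not. With a detection level of 10 CPM in place of 100 CPM, at least 3 pan-luminal genes were present in 8 cells in place of 3, fibroblast genes in 11 in place of 3 and milk genes in 32 in place of 4, and with 500 CPM in 1, 0 and 1. Contractile genes among the variable ones numbered 1 in place of 2 without cell 71, with stricter minimums of read pairs and genes per cell, with a mean of at least 200 CPM, when matched on CPM per kb, without cells 71 and 45, and without cells 49, 51, 56, 60, 61 and 71, and 0 with the squared coefficient of variation. That measure kept 6 of the 20 variable genes. The count of variable contractile genes was 3, within the tolerance, with thinning to 50000 read pairs, TMMwsp scaling or a mean of at least 10 CPM. Of the 20 uniform genes, 5 remained with a mean of at least 200 CPM and 9 with protein-coding genes only, since no more of them were tested. The median rho of contractile pairs was 0.234 with Pearson's r and 0.231 with TMMwsp scaling, and that of 3 proliferation pairs, 0.330, was 0.234 after regression and 0.443 without the 6 cells. Thinning to 50000 read pairs left 290 pairs at a rho of 0.5 and 6 at 0.7. Medians of rho near 0 changed sign for matricellular genes without cell 71 (0.03 to -0.01) and for basal keratins after regression (0.04 to -0.04). The cause of the other differences was not tested. No paired analysis was possible because the cells form 1 group with no shared replicate number and no test was run. Read pairs of 83688 to 405910 per cell limit what can be seen of genes near 10 CPM, where no read does not show absence.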

Other observations

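Some gene groups fell outside the comparisons above. Of 12 MHC class I and interferon response genes, 6 were tested, and H2-D1, which presents antigen, and Psmb8, a subunit of the immunoproteasome, were variable, while Ifit3 had no read in any cell. Of 6 long noncoding RNAs, Kcnq1ot1 was variable and Malat1 uniform. The 4 genes placed higher in pregnancy by earlier results (Reln, Col9a1, Spock3 and Ncam1) had a median rho of 0.05 over 6 pairs, with Col9a1 and Spock3 the closest (0.28, and 0.26 without cell 71).

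Several levels moved with measures of the cells. The small nucleolar RNA Snora81 had a rho of 0.71 with the mitochondrial share of read pairs, Csn1s1, alpha-S1 casein, 0.54, and Sparc -0.52. Ubb had 0.63 with the ribosomal protein share, Hnrnpl -0.58 and Malat1 -0.54. Component 3, with 3.68% of the variance, had a rho of 0.62 with the number of genes detected at equal depth, with Tsc22d2, Sh3bgrl and Vbp1 at its high end.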
